A study of Caenorhabditis elegans with 2 samples.

Results

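The starts of the DREAM complex genes of Caenorhabditis elegans were examined for peaks of LIR-3, a zinc-finger protein and LIN-26 relative, in chromatin immunoprecipitation with sequencing (ChIP-seq) of whole L4 larvae. The genes are 8 of the 19985 annotated protein-coding genes: lin-35, lin-53, lin-54, lin-9, lin-37, lin-52, efl-1 and dpl-1. For each of them, peaks were taken whose summit lay from 500 bp upstream to 200 bp downstream of the annotated gene start. The genes were chosen by name, as a set selected on peaks already seen at their starts, so the presence, signal and rank of these peaks are given as a description, with no test.

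All animals formed 1 group of 2 biological replicates, replicate 1 and replicate 2. They were hermaphrodites of strain OP312, genotype unc-119(ed3) III; wgIs312, collected 48 hours after release from L1 starvation. The transgene wgIs312 expresses LIR-3 with a GFP-FLAG tag at its C-terminus, and the immunoprecipitation used an antibody to GFP. The labels do not say how much of the fusion protein was made or in which cells, and in whole animals a weak peak in many cells and a strong one in few cannot be told apart. On genome build ce11 there were 17311 peaks in the relaxed list of replicate 1, 20601 in that of replicate 2 and 20360 in the list called on both replicates pooled, lists that by design also hold background regions. By irreproducible discovery rate (IDR), the submitters retained 552 peaks, which were the 552 strongest of the pooled list. The signal is the authors' own score, whose scale the files do not state, so a signal was compared only with others in its list. The lists hold no read counts, so the depth behind each signal is unknown.

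DREAM is a repressor complex that holds cell cycle genes, and in worm somatic cells germline genes, in a silent state. It joins a retinoblastoma-type pocket protein and an E2F-DP heterodimer to a core called MuvB. In the worm, LIN-35 is the pocket protein, EFL-1 the E2F subunit and DPL-1 its DP partner, and LIN-9, LIN-37, LIN-52, LIN-53 and LIN-54 make up the core. Loss of these genes gives a multivulva phenotype together with certain other mutations, for which they are known as class B synthetic multivulva (synMuv) genes.

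The sequences beneath the peaks are shown for the genes whose data bear on the account, from the gene-free part of the 151 bases centred on the pooled summit, in the direction of the DREAM gene. They come from the RefSeq record of assembly WBcel235, whose coordinates are those of ce11. Capitals mark matches, on either strand, to 1 of 3 motifs. An E2F site was TTCCCGC, its variant TTCGCGC, the form TTGCCGC or else the form TTGGCGC. The CHR element, which LIN-54-type proteins bind, was TTTGAA or the variant TTCGAA. The other motif was TGCGTCTC, which contains neither of them. The stretch of lin-54 is chrIV:13240652-13240711 (plus strand), that of lin-9 chrIII:8904235-8904385 (minus strand), that of efl-1 chrV:16965769-16965919 (minus strand) and that of lin-52 chrIII:9824751-9824858 (minus strand).
lin-54: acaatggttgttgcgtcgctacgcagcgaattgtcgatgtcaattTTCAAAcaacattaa
lin-9: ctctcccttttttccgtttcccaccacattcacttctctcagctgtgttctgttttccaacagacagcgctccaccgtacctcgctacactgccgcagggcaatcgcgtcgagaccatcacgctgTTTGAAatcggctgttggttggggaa
efl-1: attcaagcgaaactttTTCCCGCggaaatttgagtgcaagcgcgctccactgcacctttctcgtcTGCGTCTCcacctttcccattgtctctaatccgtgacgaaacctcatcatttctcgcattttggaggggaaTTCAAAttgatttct
lin-52: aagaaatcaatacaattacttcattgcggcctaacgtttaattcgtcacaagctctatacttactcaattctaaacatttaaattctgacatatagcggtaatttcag

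An IDR summit lay in the window of 4 of the 8 genes: the pocket protein gene lin-35 and the MuvB core genes lin-53, lin-54 and lin-9. Among all protein-coding genes 1.04% had one (207 of 19985). The core gene lin-52 and the E2F gene efl-1 had a summit in the pooled relaxed list that IDR did not keep, which brought the number with any pooled summit to 6 of 8, beside 18.9% of protein-coding genes. The core gene lin-37 and the DP gene dpl-1 had no summit in the window in any of the 4 lists. The genes split in this way within the core itself: lin-53, lin-54 and lin-9 had an IDR summit, lin-52 a weak one and lin-37 none.

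The peaks at the 4 genes were all below the median signal of the 552 IDR peaks (120.4) and close to one another. In the pooled list the signal was 110.6 at lin-35, 108.3 at lin-53, 113.5 at lin-54 and 100.1 at lin-9, ranks 340, 355, 317 and 421 of 20360. The median over the 207 protein-coding genes at such a summit was 116.0, above all 4. None of the 4 was among the 276 strongest IDR peaks, which reached 0.46% of protein-coding genes. The weakest IDR peak had a signal of 88.9. The DREAM gene nearest to that limit from above was lin-9, with 100.1 and rank 421 of the 552 IDR peaks. The nearest from below was efl-1, with 46.2. At lin-52 the signal was 33.6, near the median of 34.1 over the 3771 protein-coding genes with a pooled summit.

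**Figure D1:**
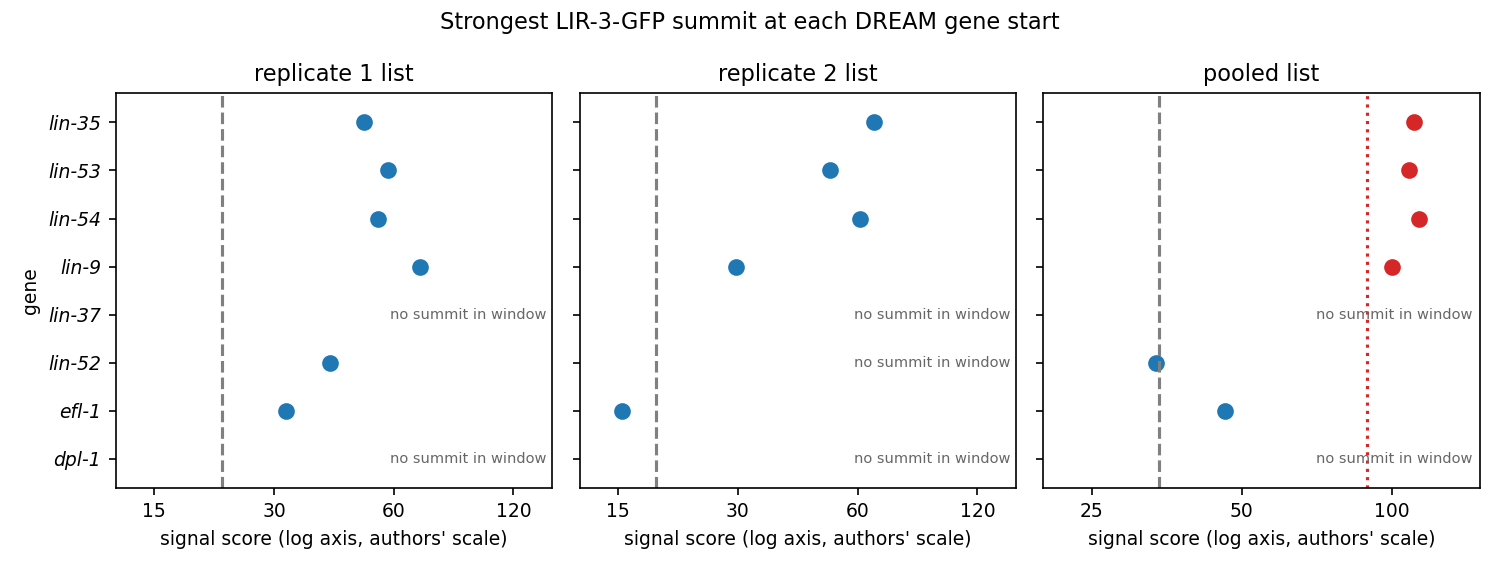
Signal score of the strongest summit in the window at each DREAM gene (rows) in the replicate 1, replicate 2 and pooled lists (panels, log axes; scales are not comparable between panels). Red points are IDR peaks, the dashed line is the median over protein-coding genes with a summit in that list and the dotted line the weakest IDR peak (88.9); lin-35, lin-53, lin-54 and lin-9 lie above that line, efl-1 and lin-52 below it.

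The gene lin-35 encodes the only retinoblastoma-type pocket protein of the worm. It lies on the plus strand at chrI:5807709-5815637 (WBGene00003020), and its IDR peak was at chrI:5807298-5807713 with the summit 203 bp upstream of the gene start. The signal was 50.6 in replicate 1, rank 531 of 17311, and 65.999 in replicate 2, rank 218 of 20601. The peak was thus among the 552 strongest of both replicates, though only just in replicate 1. The summit was 201 bp upstream in replicate 1 and 252 bp upstream in replicate 2, a distance of 51 bp. Over the 202 protein-coding genes with an IDR summit and a summit in both replicates, the median distance was 21.5 bp (quartiles 8 and 43). The replicate summits at lin-35 thus lay further apart than the upper quartile. The window also holds the start of vps-51, a gene of vesicle tethering that runs the other way. The 2 starts are 418 bp apart, and the summit lay 215 bp upstream of vps-51, so the peak cannot be given to either gene by its position.

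LIN-53 is a WD40-repeat protein of the RbAp48 type that also belongs to other chromatin complexes, NuRD among them. Its gene is on the minus strand at chrI:9618196-9619760 (WBGene00003036), and the IDR peak was at chrI:9619787-9620202 with the summit 235 bp upstream. The signal was 57.9 in replicate 1 and 51.1 in replicate 2, ranks 383 and 389. Of the 4 genes, it had the closest ranks in the replicates. The summits of the replicates, 242 and 273 bp upstream, were 31 bp apart. The start of nra-2, which encodes a nicalin-like membrane protein, lies 467 bp away on the other strand, and the summit was 232 bp upstream of it, 3 bp nearer than to lin-53.

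LIN-54 is the DNA-binding subunit of the MuvB core. The gene is on the plus strand at chrIV:13241044-13243401 (WBGene00003037), and its IDR peak, at chrIV:13240428-13240843, had the highest signal of the 8 genes in the pooled list, while lin-9 was highest in replicate 1 and lin-35 in replicate 2. The signal was 54.6 in replicate 1 (rank 454) and 60.9 in replicate 2 (rank 257), and both replicates had the summit at the same base. That base is 408 bp upstream of lin-54 and 15 bp inside rpl-12, a gene of the large ribosomal subunit that starts 393 bp away on the opposite strand. By distance this is a peak at the rpl-12 start, and it was counted for lin-54 only because the window reaches 500 bp upstream. Inside lin-54 itself, the pooled list had a summit 579 bp downstream of the start (signal 35.8, rank 6723), outside the window and not in the IDR list.

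LIN-9 is a core subunit conserved in flies and mammals. Its gene is on the minus strand at chrIII:8900237-8904131 (WBGene00002998), and the IDR peak was at chrIII:8904102-8904517 with the summit 179 bp upstream. No other gene start lay in the window, and the next protein-coding gene upstream, unc-32, was 1483 bp away. This made lin-9 the only one of the 4 genes with an IDR peak of its own. It was also the one on which the replicates differed most: the signal was 69.8 in replicate 1, rank 231, and 29.7 in replicate 2, rank 1733. The authors' −log10 of the q-value was 3.02 in replicate 1, the highest in that list, and 1.26 in replicate 2. The peaks at lin-53 and lin-54 had the same 3.02 in replicate 1. Replicate 1 also had a weaker second summit in the window, with a signal of 25.12. The peak there was thus listed as 2 summits 116 and 316 bp upstream, while replicate 2 had 1 summit in the window, 170 bp upstream. The strongest summits of the replicates were 54 bp apart, again above the upper quartile of 43 bp. Outside the window, replicate 2 had summits 885 bp upstream (signal 25.6, rank 2822) and 1086 bp upstream (signal 15.5, rank 13714). The pooled list had 1 at 817 bp upstream (signal 26.8, rank 15162).

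**Figure D2:**
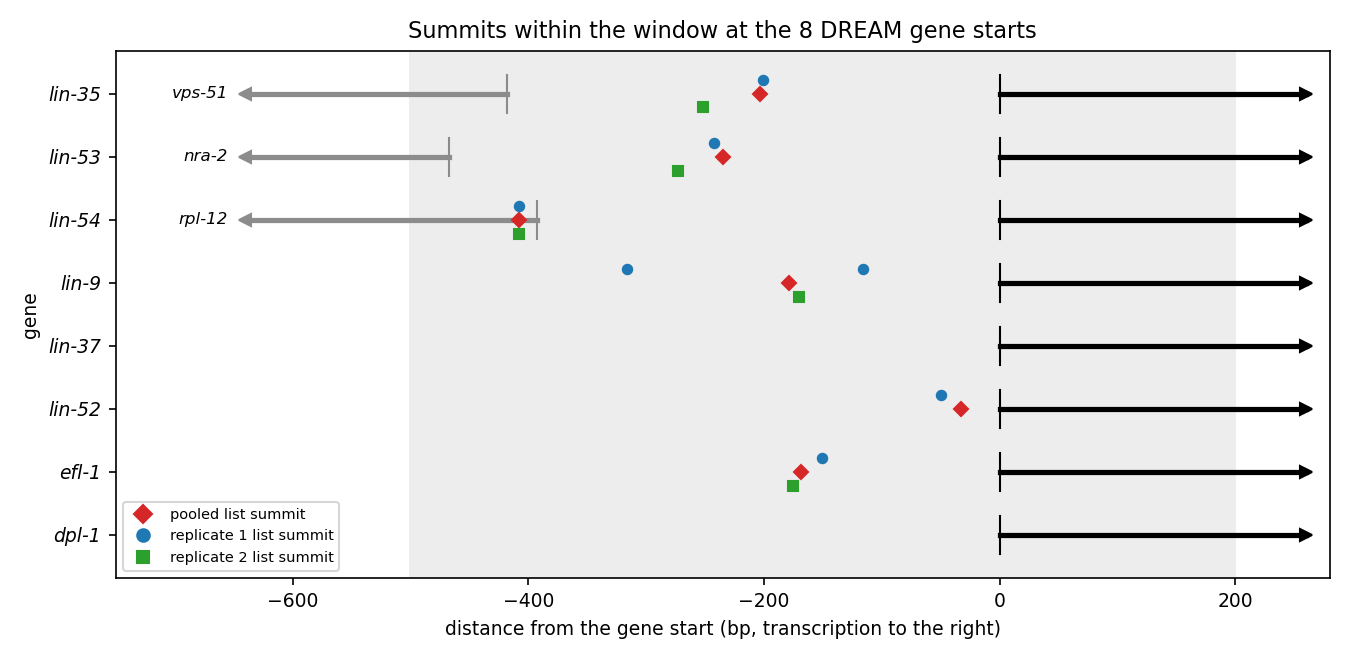
Summits in the window (grey, 500 bp upstream to 200 bp downstream) at the 8 DREAM gene starts, by list; the x axis is the distance from each gene's start in bp, black arrows are the DREAM genes and grey arrows other genes with a start in the window. The lin-35 and lin-53 summits lie between divergent starts, the lin-54 summits lie 15 bp inside rpl-12, and lin-37 and dpl-1 have none.

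Few protein-coding genes with an IDR summit stood as low in replicate 2 as lin-9. Of the 207 with an IDR summit, 129 (62.3%) were among the 552 strongest peaks of both replicates, as lin-35, lin-53 and lin-54 were, and 34 (16.4%) only of replicate 1, as lin-9 was. In the 552 strongest peaks of replicate 1 the DREAM genes were thus 4 of 8, beside 0.961% of protein-coding genes, and in those of replicate 2 they were 3 of 8, beside 1.02%. The reverse, a place among the 552 strongest peaks of replicate 2 only, held for 37 of the 207 genes. No summit in the window was listed for 2 of the 207 in replicate 2 and for 3 in replicate 1. Of the genes ranked in replicate 2, 2 stood lower there than lin-9. These were cct-1, a chaperonin subunit gene, and mig-5, a dishevelled gene of Wnt signalling, which share 1 peak (rank 147 in replicate 1 and 1978 in replicate 2). With 2 replicates it was not tested whether lin-9 is bound less in one of them.

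**Figure D3:**
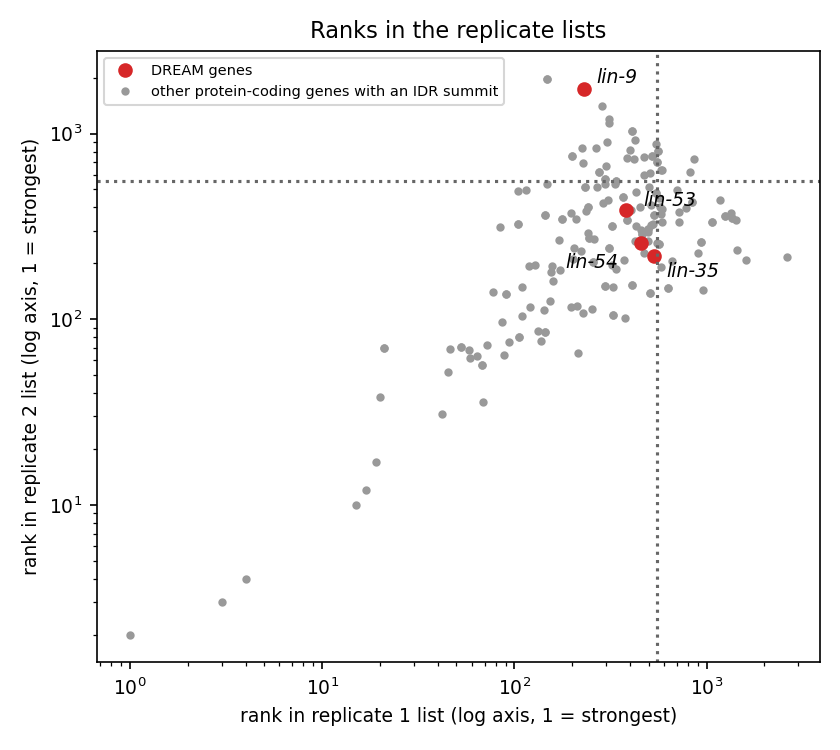
Rank of the strongest window summit in the replicate 1 list (x) and the replicate 2 list (y), log axes, for the 202 protein-coding genes with an IDR summit and a summit in both lists. Dotted lines mark rank 552; lin-35 (531 and 218), lin-53 (383 and 389) and lin-54 (454 and 257) lie within both, and lin-9 (231 and 1733) lies above the horizontal line.

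The remaining core genes and the E2F-DP pair had weak summits or none. EFL-1 is the E2F-type DNA-binding subunit. At its gene, on the minus strand at chrV:16958590-16965675 (WBGene00001161), the pooled summit was 169 bp upstream with a signal of 46.2, within the highest 14.7% of the list. The signal was 32.2 in replicate 1, rank 1983, and 15.3 in replicate 2, rank 14002, below the replicate 2 median of 18.7 over protein-coding genes with a summit. The summits of the replicates were 24 bp apart. The −log10 of the q-value at efl-1 was 0.86 in replicate 1 and 0.077 in replicate 2. The relaxed lists also hold background regions, so such a summit need not be a bound site. LIN-52, a small subunit that links the worm MuvB core to LIN-35, is encoded on the minus strand at chrIII:9824083-9824750 (WBGene00003035). Its pooled summit was 33 bp upstream, rank 8168. The −log10 of the q-value at lin-52 was 0.16 in the pooled list and 1.98 in replicate 1. In replicate 1 the summit was 50 bp upstream with a signal of 41.6 (rank 903), whereas replicate 2 had no summit in the window. Of the 3564 protein-coding genes with a pooled summit that IDR did not keep, 1347 (37.8%) had a summit in both replicates, as efl-1 did, and 851 (23.9%) in replicate 1 alone, as lin-52 did.

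At lin-37, on the minus strand at chrIII:7070890-7072552 (WBGene00003022), the nearest pooled summit was 5767 bp downstream of the gene start. At dpl-1, on the plus strand at chrII:9169910-9172565 (WBGene00001061), it was 3363 bp downstream. DPL-1 pairs with E2F proteins to bind DNA. The lists give no lower limit of detection for a single site, so the absence of a summit does not show that LIR-3 was absent.

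The 8 genes differ in how their neighbours are arranged. The genes lin-35, lin-53 and lin-54 each have a divergent protein-coding start within 500 bp upstream, whereas lin-37 and lin-52 follow a gene on the same strand, ZK418.5 at a gap of 60 bp and ZK632.9 at a gap of 126 bp. Neither arrangement holds for lin-9, which had an IDR peak, or for efl-1 and dpl-1, which had none: the nearest gene wholly upstream of each runs the other way, at a gap of 1483 bp for lin-9, 1138 bp for efl-1 and 2079 bp for dpl-1. The start of dpl-1 also lies within T23G7.2, a gene of the opposite strand. Neither ZK418.5 nor ZK632.9 had a pooled summit at its own start, although ZK418.5 had one in replicate 2, of signal 15.6 and rank 13463. Over all protein-coding genes, 3.84% of the 1848 with a divergent start within 500 bp had an IDR summit, 0.42% of the 1904 that follow a same-strand gene within 200 bp and 0.789% of the other 16233. These classes were drawn up after the peaks had been seen. A summit between divergent starts counts for both genes, so 1 peak can add 2 genes to the first class. When each summit went only to its nearest protein-coding start, 2 of the 8 DREAM genes kept an IDR summit, lin-35 and lin-9, beside 0.801% of protein-coding genes, while the lin-53 peak went to nra-2 and the lin-54 peak to rpl-12.

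At the 44 divergent pairs with an IDR summit in reach of both starts, the peaks at lin-35 and lin-53 were among the most central. The summit was 6 bp from the midpoint of vps-51 and lin-35 and 1.5 bp from that of lin-53 and nra-2, whereas at rpl-12 and lin-54 it was 211.5 bp away. The median over the 44 pairs was 55.75 bp, and 6 pairs had the summit within 6 bp of the midpoint. Starts of these pairs were a median of 403.5 bp apart, and those of the 3 pairs with a DREAM gene 393 to 467 bp. In the replicates, the summits at lin-35 and lin-53 stood up to 51 bp apart, so their central position is no more exact than that.

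**Figure D4:**
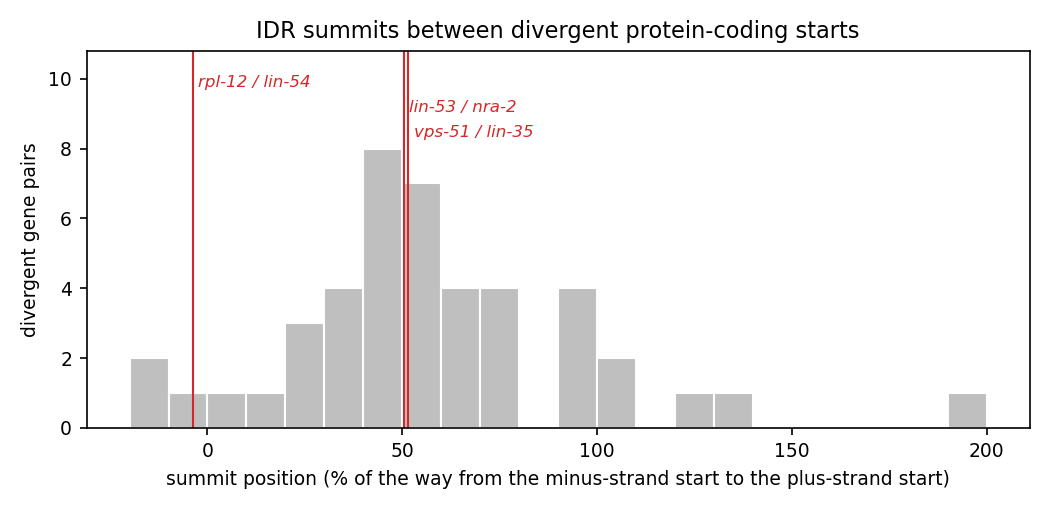
Position of the IDR summit at 44 divergent protein-coding pairs, in percent of the way from the minus-strand start (0) to the plus-strand start (100). Bars count pairs and red lines mark the pairs with a DREAM gene. At 8 of the 44 pairs the summit lies outside the pair, below 0 or above 100. The lines of vps-51 / lin-35 and lin-53 / nra-2 stand near 50 and that of rpl-12 / lin-54 just below 0.

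None of the 6 genes with a pooled summit had a tRNA, snoRNA, snRNA or miRNA start in the window. The nearest such start was 1559 bp from the lin-54 summit, at the snoRNA gene JC8.15, and at least 9158 bp from the others. All 8 genes are autosomal. The internal promoter motifs of tRNA genes, the A box and the B box (GATCAANNC, GATCGANNC, GTTCAANNC or GTTCGANNC), matched within 50 bp of 0 of the 6 summits. At protein-coding starts the A box matched 15.1% of IDR and 7.32% of pooled summits and the B box 7.83% and 3.95%, so a count of 0 in 6 is near these shares. Over all IDR summits they matched 34.4% and 26.6%. Within 100 bp the B box matched at 1 of 6, lin-54, beside 17.5% of IDR and 7.57% of pooled summits at protein-coding starts. The A box matched at 0 of 6 there too, beside 23.5% and 13.7%.

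The motif that DREAM's own E2F subunit recognises was sought near the 6 summits, too few to tell its share from the background. Within 50 bp, an E2F site matched at 1 of 6, lin-54, beside 5.51% of the 3647 pooled summits and 9.04% of the 166 IDR summits at protein-coding starts. The site, TTGGCGC at chrIV:13240625-13240631, was centred 8 bp from the summit and thus also lies inside rpl-12, outside the printed stretch. Within 100 bp the number was 3 of 6, with lin-53 and efl-1 added, beside 9.93% and 14.5%. In the printed sequence of efl-1 the E2F site begins at base 17 and the motif TGCGTCTC at base 66, 6.5 bp from the summit. That motif was at 1 of 6 summits within 50 bp, beside 2.74% of pooled and 8.43% of IDR summits at protein-coding starts. The CHR element matched at 1 of 6 (lin-53), beside 24.2% and 18.7%, and within 100 bp at 4 of 6, beside 45.5% and 45.2%. The 101 bases around the summit had a GC content of 40.6% at lin-35, 55.4% at lin-53, 53.5% at lin-54, 55.4% at lin-9, 36.6% at lin-52 and 48.5% at efl-1. The median was 40.6% over pooled and 49.5% over IDR summits at protein-coding starts. A match is a string of letters, and nothing in these data shows that a factor binds there.

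Other genes, chosen by synMuv class, chromatin complex, cell cycle role or germ cell role, were taken in 7 lists. An IDR summit lay at 2 of these genes. Of the 7 lists, 5 had no member with an IDR summit. The class B list left out NuRD and associated chromatin factors, mep-1 among them, which formed a list of their own. The count was 0 of 10 other class B synMuv genes so listed, 0 of 4 of class A and 0 of 4 of class C, which encode the TIP60 complex. It was also 0 of 12 genes of the G1 cell cycle pathway, other E2F genes included, and 0 of 18 germ cell genes. With 1.04% of all protein-coding genes as the background, lists this short say little by a count of 0. In the list of NuRD and associated chromatin factors 1 of 8 had one, mep-1, whose zinc-finger product acts with the NuRD-type remodeller LET-418. Its summit was 229 bp upstream with a signal of 154.4 (81.0 in replicate 1 and 74.5 in replicate 2), higher than at any DREAM gene, in reach of 3 ncRNA genes as well. Among 25 replication and mitosis genes, the kind that DREAM represses, 1 had an IDR summit: pcn-1, the gene of the replication clamp PCNA, with a summit 275 bp upstream and a signal of 124.7 (82.4 in replicate 1 and 45.2 in replicate 2).

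Relaxed summits were more widely spread over these lists. All 4 class C genes had one, with epc-1 highest (signal 74.9, rank 781), as did 13 of the 25 replication and mitosis genes. So did 5 of 12 in the G1 pathway and E2F list, 4 of 10 other class B genes and 2 of 4 class A genes. The count was 2 of 8 NuRD genes and 3 of 18 germ cell genes. Among all protein-coding genes the share was 18.9%. The median signal of those with one ran from 26.5 in germ cell genes to 48.0 in the G1 pathway and E2F list. The exception was 102.1 in the 2 NuRD genes. Over the 6 DREAM genes the median was 104.2, and over all protein-coding genes 34.1.

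**Figure D5:**
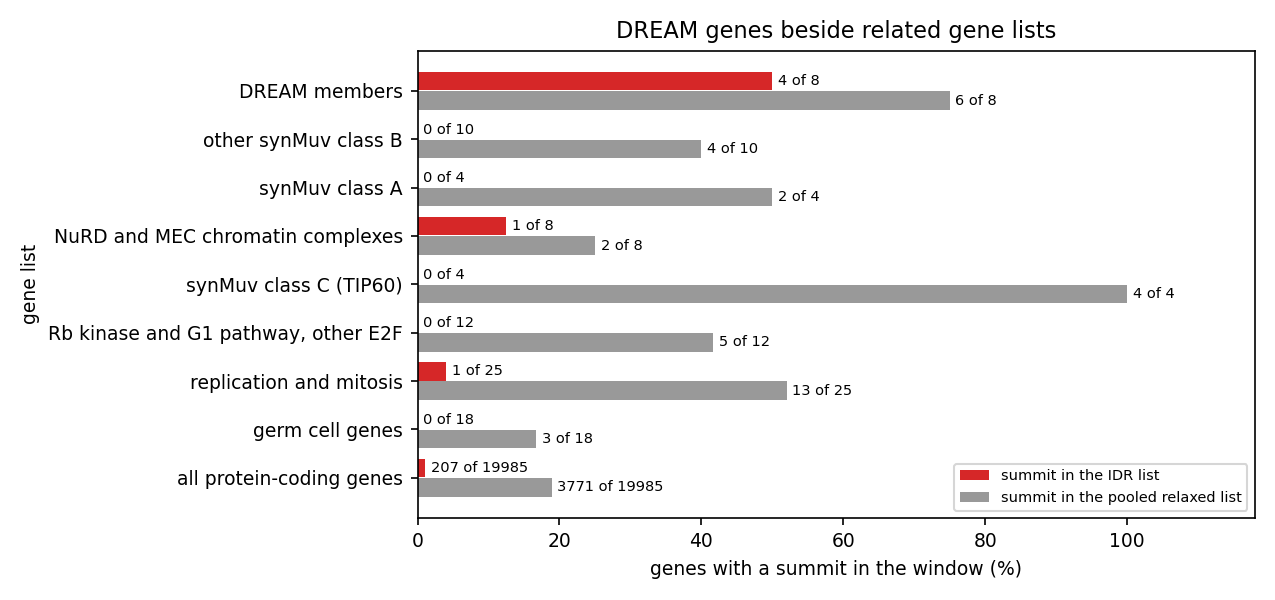
Percent of the genes of each list with a summit in the window, in the IDR list (red) and in the pooled relaxed list (grey), with the counts beside the bars. The DREAM genes, chosen with their peaks known, have 4 of 8 in the IDR list, while 5 of the 7 related lists have none.

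The genes most like each of the 4 in their replicate ranks, by distance between percentile ranks over 2 replicate lists and 1624 protein-coding genes, were first the genes that share the peak: vps-51 with lin-35, nra-2 with lin-53 and rpl-12 with lin-54, each at a distance of 0. Next to lin-35 stood Y75B8A.23 and Y41D4A.4, close to lin-53 stood tag-267, and next to lin-54 the divergent pair ech-5 and F56B3.11, all within 0.251 percentile points. To lin-9 the closest were cct-1 and mig-5 at 1.28 points and the aquaporin gene aqp-9 at 1.36, so that no gene matched its ranks as closely.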

How the data were processed

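Peak lists in narrowPeak format on ce11 were used, per the submitters' file listing: relaxed lists per replicate and for the pooled replicates, called with a control alignment, and the optimal IDR list derived from them. No aligner or peak caller is named in the labels or file listing. The signal is a score the authors deposited, and the −log10 of the q-value is also the authors' value. Lists on ce10 and reads of a mock or untagged immunoprecipitation were not used here.

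The positions and biotypes of genes came from Ensembl release 115 of WBcel235 (ce11 coordinates) and sequence from RefSeq. Summits were the peak start plus the deposited offset; coordinates are 1-based. Each summit was assigned to all genes in whose window it lay. Rank 1 is the highest signal of a list. Motifs were searched on both strands and had to lie wholly within the stated distance of the summit. No test was run, because 1 group gives no contrast and the members, gene lists and motifs were chosen with earlier results of these data known. Named genes are the members, genes sharing their windows, the 3 closest genes in replicate ranks (1 close to lin-53 is not reported here) and members of related lists with an IDR summit; epc-1, JC8.15, unc-32 and the genes preceding lin-37 and lin-52 or spanning dpl-1 were named after their values were seen. The labels do not say whether replicates came from separate cultures. Summit assignment and motif search were checked on simulated data. Python 3.11.15, numpy 2.4.6, pandas 2.3.3 and matplotlib 3.10.9 were used.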

Additional observations from a re-analysis of the deposited data

How the results depend on the processing

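Of the 8 genes, the same 4 (lin-35, lin-53, lin-54 and lin-9) had an IDR summit with a window of 1000 bp upstream, with overlap of whole peak intervals, with the starts of all transcripts and, in an alternative chosen after seeing the data, without peaks at small RNA starts. In the 276 strongest IDR peaks the number was 0. When each summit went only to its nearest protein-coding start, also chosen after seeing the data, it was 2 (lin-35 and lin-9), with lin-53 losing its summit to nra-2 and lin-54 to rpl-12; the share of protein-coding genes was then 0.801%. With the 552 strongest peaks of 1 replicate alone it was 3 to 4, with lin-9 missing where replicate 1 was left out. For the pooled relaxed list the number was 6 in 6 of 8 settings, the reported one included. It was 4 with the nearest start, and 5 to 6 with 1 replicate left out. Signals of the strongest pooled summits were the same with the wider window and with the starts of all transcripts. An E2F site was at 3 summits within 100 bp and at 1 within 25 bp. No paired analysis was possible because there is 1 group. Depth is unknown, so how far it limits the weak summits at efl-1 and lin-52 cannot be given.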
